A study of Mus musculus with 2 samples.

Results

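Fibroblast growth factor (FGF) signaling was followed through 8 genes, the receptors *Fgfr1*, *Fgfr2*, *Fgfr3* and *Fgfr4* and the ligands *Fgf2*, *Fgf7*, *Fgf9* and *Fgf18*, which are 8 of the 32245 gene columns of the deposited tables. The rule takes them by name and uses no measured value. The data are droplet-based 3′ single-cell RNA sequencing of mouse knee joints at 1 month of age, with 1 control and 1 mutant library. The control library came from Stat3fl/fl females, which carry floxed *Stat3* alleles and no Cre. The mutant library came from females labelled Acan-Cre+/Cre;Stat3fl/fl, which carry the same floxed alleles and, per the study's methods, a tamoxifen-inducible Cre recombinase inserted at the aggrecan (*Acan*) locus, with tamoxifen given at postnatal days 2 and 3 and a C57BL/6 background. Whether the control animals of this experiment also received tamoxifen was not given in the sources used here. Each library pooled the knees of 2 to 3 mice, and live cells negative for CD31, Ter119 and CD45 were sorted, so blood and endothelial cells were depleted on purpose. The Cre is expected in *Acan*-expressing cells, so deletion was aimed at chondrocytes. Whether other cells of the joint were also deleted was not tested. With 1 library per genotype there is no test between genotypes, and every difference below describes these 2 libraries.

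FGF ligands bind receptor tyrosine kinases together with heparan sulfate and act through adaptors on the MAP kinase cascade, which in turn induces feedback inhibitors such as the Sprouty and Dusp proteins. In the growth plate, FGFR3 is carried by proliferating and prehypertrophic chondrocytes, where it restrains growth, and FGF9 and FGF18 are ligands that reach it from the perichondrium and surrounding tissue. FGFR1 is found in resting and hypertrophic cells and in bone and connective tissue, FGF2 is stored in the pericellular matrix of cartilage, and FGF7 is a mesenchymal ligand for the epithelial form of FGFR2.

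The promoters of 2 members are shown because *Fgfr3* and *Fgf18* are a receptor and a ligand whose ratios between libraries had opposite signs in growth-cartilage-type cells, although the *Fgfr3* one was under 2-fold and *Fgfr2* and *Fgf2* form another such pair. The sequences are RefSeq, GRCm38.p6, and run from 250 to 51 bases upstream of the annotated start, 5′ to 3′ on the strand of the gene, with CpG dinucleotides in capitals. The *Fgfr3* stretch lies at chr5:33721474-33721673 on the plus strand and the *Fgf18* stretch at chr11:33147451-33147650 on the minus strand.
Fgfr3: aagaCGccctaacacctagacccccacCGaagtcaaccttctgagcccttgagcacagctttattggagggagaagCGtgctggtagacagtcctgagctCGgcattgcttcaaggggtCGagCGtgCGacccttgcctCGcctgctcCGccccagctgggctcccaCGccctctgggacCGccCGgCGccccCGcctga
Fgf18: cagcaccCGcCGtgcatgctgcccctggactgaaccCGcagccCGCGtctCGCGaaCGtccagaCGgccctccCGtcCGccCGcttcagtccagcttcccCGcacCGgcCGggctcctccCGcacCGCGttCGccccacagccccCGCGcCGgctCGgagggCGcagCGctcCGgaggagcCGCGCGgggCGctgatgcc
Both stretches are rich in CpG, with 14 in *Fgfr3* and 30 in *Fgf18* against a median of 4 in the same stretch of 32851 RefSeq promoter windows, and their GC content was 65.0% and 77.5%. The STAT motif TTCNNNGAA, the SOX motif AACAAT and the AP-1 motif TGANTCA were searched on both strands over the 250 upstream bases. A window was listed for 7 of the 8 genes, all except *Fgfr1*, and none of their 8 windows held any of the 3 motifs, which are held by 7.02%, 9.42% and 6.75% of all windows. Each window precedes a listed start that is not always the gene start given below. The *Fgf9* window (chr14:58072436-58072685) and window 2 of *Fgfr3* lie within the gene, and the *Fgf2* window runs past the gene start. The absence of these letters says nothing of the factors themselves.

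By the RefSeq annotation of GRCm38.p6, *Fgfr1* lies at chr8:25518759-25575718, *Fgfr2* at chr7:130162451-130266808, *Fgfr3* at chr5:33721724-33737068 and *Fgfr4* at chr13:55152818-55168759. The ligand *Fgf2* lies at chr3:37348477-37410106, *Fgf7* at chr2:126034658-126091185, *Fgf9* at chr14:58070671-58112854 and *Fgf18* at chr11:33116970-33147400. *Fgf2* shares exon positions with the antisense gene *Nudt6*, and whether strand was used in counting was not given in the sources used here, so reads of the pair cannot be told apart with certainty. *Nudt6* itself was at 3.77 CPM in control and 2.93 CPM in mutant chondrocytes, far below *Fgf2* in the same cells. *Fgf2* also shares exon positions with *Gm43439*, a gene on the same strand, so strand could not tell their reads apart. *Fgfr1* and *Fgfr3* also overlap antisense genes in their exons. All these overlaps were read from a Gencode annotation and not from RefSeq. In it the span of *Fgfr2* runs far past the one given above, to chr7:133123350, and shares exon positions with *Ctbp2*.

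The tables hold 4903 control and 1340 mutant cells with a median of 4344 and 3743 estimated unique molecular identifiers (UMIs) per cell, and 2 cell barcodes occur in both libraries, none of them in a chondrocyte of both. Chondrocytes are the 501 control and 332 mutant cells marked by the authors. Each expressed both *Sox9* and *Col2a1* and had no globin value above 0, whereas a further 512 control and 3 mutant *Sox9*+*Col2a1*+ cells, each with a globin value above 0, carried no mark. Tendon (237 and 43 cells), osteoblast (110 and 74), fibroblast (240 and 99) and synovial lining cells (208 and 45) were gated from marker genes. Of the checks that no gate used, *Acan* and *Col9a1* were highest in chondrocytes, *Fmod* in tendon, *Alpl* in osteoblasts and *Col14a1* in fibroblasts in both libraries. The tendon checks *Comp* and *Col1a1* ranked second in tendon in both, after chondrocytes and osteoblasts. In the lining gate *Has1* was highest, but *Pdpn* and *Vcam1* were not, so "lining" names the *Prg4*-based gate and not a settled cell type. Depth differed, with a median of 5876 UMIs per control and 8595 per mutant chondrocyte, and 3.99% against 20.2% of chondrocytes were over 5% mitochondrial. Globin was above 0 in 47.3% to 69.2% of the gated control cells and in 0% to 2.33% of the mutant ones. *Stat3*, the targeted gene, was at 142 CPM (counts per 1000000 summed UMIs) in control and 103 CPM in mutant chondrocytes, a log2 ratio of -0.45, and at 100.5 to 131 CPM (control) and 92.1 to 177 CPM (mutant) in the 4 gated classes. A 3′ tag need not cover the deleted exons, and *Stat3* shares exon positions with the antisense gene *Stat5a*, so this is a weak check of the deletion. In the control library *Acan* was at 4837 CPM in chondrocytes, 358 CPM in tendon and 13.3 to 98.0 CPM in the other gated classes. The gated classes are therefore not taken as free of deletion.

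Across the 5 classes *Fgfr1* was broad, *Fgfr3* lay mainly in cartilage, and *Fgf9* was highest in tendon and *Fgf7* in fibroblasts. *Fgf2* was shared by chondrocytes, tendon and fibroblasts, *Fgf18* was highest by CPM in fibroblasts and tendon, and *Fgfr4* was near 0 throughout. Between genotypes the members that differed by at least 2-fold in chondrocytes were *Fgf2* and *Fgf18*, both higher in the mutant library. Ratios below are log2((mutant CPM + 1)/(control CPM + 1)), and a gene is said to pass the 2-fold rule when its mean over the 2 libraries was at least 10 CPM and the ratio was at least 1 or at most -1.

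**Figure D1:**
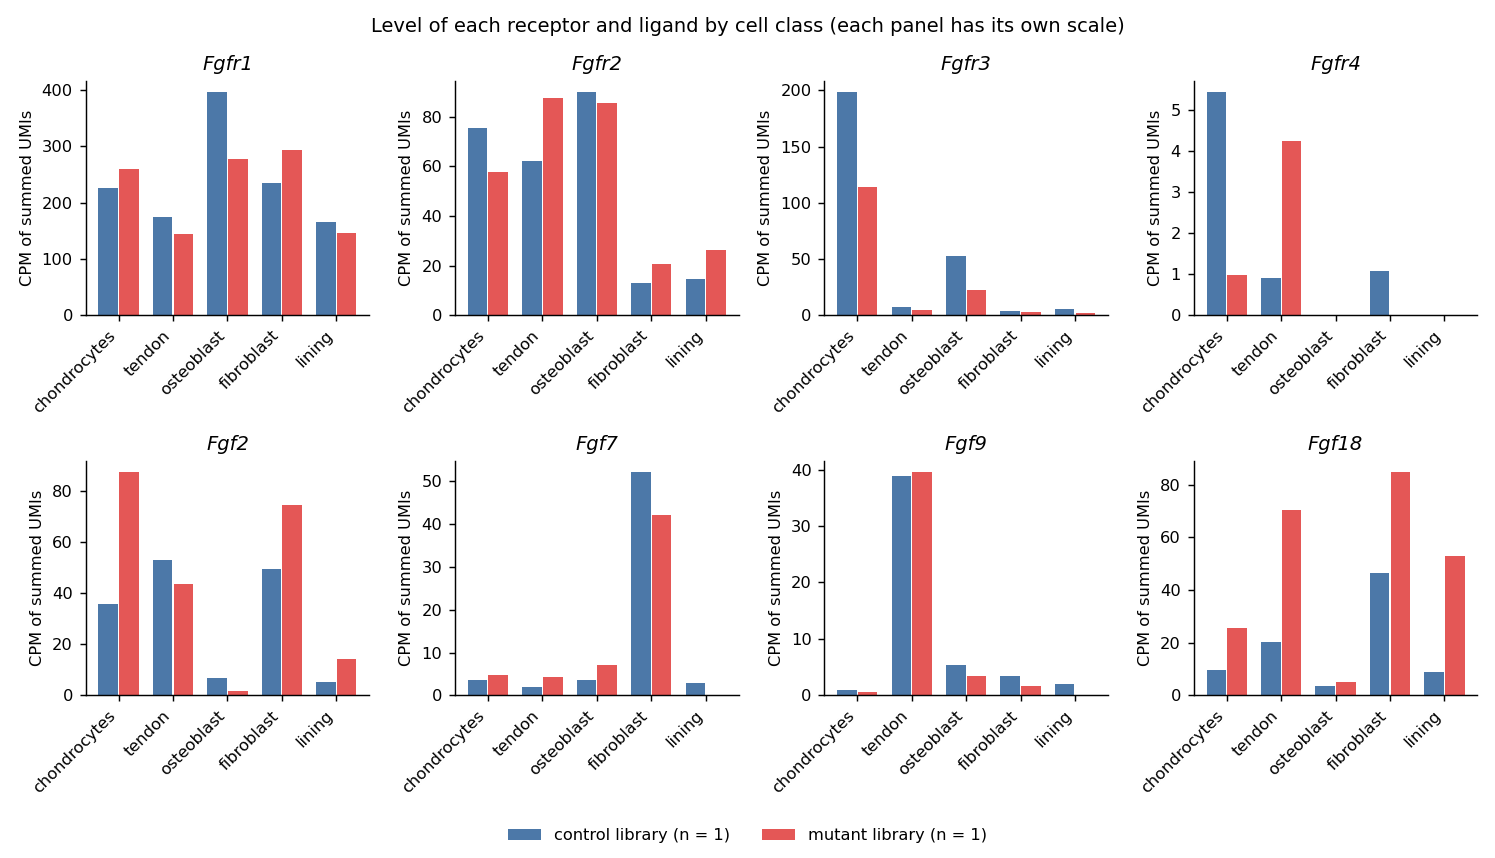
Bars give the level of each gene in CPM of summed UMIs (vertical axis from 0, own scale in each panel) in 5 cell classes, blue for the control and red for the mutant library, 1 library each and so without error bars. *Fgfr3* is highest in chondrocytes (198 and 114 CPM), *Fgf9* in tendon (38.8 and 39.5 CPM) and *Fgf7* in fibroblasts (52.1 and 42.2 CPM), while *Fgf2* in chondrocytes is at 35.8 CPM in control and 87.3 CPM in mutant cells.

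In chondrocytes, 5 of the 8 genes passed the level filter, 2 were at least 2-fold higher in the mutant library and 0 were at least 2-fold lower. Of these 2, *Fgf18* was at 9.76 CPM in control cells and passed the filter of 10 CPM only through its mutant level of 25.8 CPM. Its call is therefore not independent of the filter. Of all 7579 genes that passed, 3.76% were at least 2-fold higher and 5.59% at least 2-fold lower, and their median log2 ratio was -0.18. The counts per class are small, and a share of 5 genes cannot be set firmly against these percentages.

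*Fgfr1*, the receptor shared by most mesenchymal cells, was at 227 CPM in control and 260 CPM in mutant chondrocytes, a log2 ratio of 0.20. Its share above 0 was 60.9% of control chondrocytes (exact 95% interval 56.5 to 65.2, counting error only, as for all intervals here) and 66.6% of mutant ones (61.2 to 71.6). The intervals overlap, and the difference of 5.69 points had an interval of -1.18 to 12.4. After thinning every cell to 1000 UMIs, which removes the depth difference, the expected shares were 20.7% and 21.4%. In the other control classes *Fgfr1* was at 396 CPM in osteoblasts, 235 CPM in fibroblasts, 175 CPM in tendon and 166 CPM in lining cells. Osteoblasts, at 73.6% of cells above 0, stood above the 54.2% of fibroblasts without overlap of their intervals. The osteoblast interval (64.4 to 81.6) did overlap that of chondrocytes. In the mutant library the levels were 294 CPM in fibroblasts, 278 CPM in osteoblasts, 146 CPM in lining cells and 144 CPM in tendon, and no neighbours in the order, chondrocytes included, were apart by their intervals. By CPM the highest class was osteoblasts for the control and fibroblasts for the mutant cells. Osteoblasts and chondrocytes could not be ordered in the control library, nor osteoblasts and fibroblasts in the mutant one.

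*Fgfr2*, which acts in osteoprogenitors and epithelia, was at 75.6 CPM in control and 57.7 CPM in mutant chondrocytes, a log2 ratio of -0.38. The shares above 0 were 32.3% (28.3 to 36.6) and 34.6% (29.5 to 40.0), and 8.38% and 6.97% after thinning, so the share and the level pointed to different sides and no order is read from the share. Osteoblasts held 90.0 and 85.6 CPM and tendon cells 62.2 and 87.6 CPM in the control and mutant libraries. Fibroblasts (12.9 and 20.8 CPM) and lining cells (14.6 and 26.2 CPM) were the low classes, with shares of 5.42% to 13.3%. In both libraries chondrocytes and osteoblasts had overlapping intervals, and fibroblasts and lining cells could not be ordered either. The mutant tendon value rests on few molecules, since 3 of the 43 cells held 60.2% of its UMIs, and the ratio of 0.49 became -0.24 without the 3 highest cells of each library.

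*Fgfr3*, the receptor that restrains growth of the growth plate, lay mainly in cartilage cells. Marked chondrocytes held 56.1% of all *Fgfr3* UMIs of the control library, with a further 27.1% in the unmarked *Sox9*+*Col2a1*+ cells, and 82.4% of those of the mutant library. These cells held 13.0%, 9.96% and 41.1% of all UMIs. Its level was 198 CPM in control and 114 CPM in mutant chondrocytes, a log2 ratio of -0.80, which did not reach 2-fold. The shares above 0 were 54.1% (49.6 to 58.5) and 47.0% (41.5 to 52.5), a difference of -7.10 points (-14.1 to 0.01), and 16.2% and 9.34% after thinning. The share, the thinned share and the level were all lower in the mutant library, although its cells were deeper.

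Osteoblasts were the other class with *Fgfr3*, at 53.0 CPM in control and 22.4 CPM in mutant cells. This log2 ratio of -1.21 passed the 2-fold rule and was the one such difference among the 3 members that passed the filter there, beside 13.1% of 7583 genes at least 2-fold lower and 6.73% at least 2-fold higher. The cells above 0 were 21 of 110 (19.1%, 12.2 to 27.7) and 8 of 74 (10.8%, 4.78 to 20.2), so the intervals overlap, and the difference was -8.28 points (-18.8 to 3.35). Among osteoblasts at or below 5% mitochondrial, a limit that 43.2% of the mutant cells exceeded, the ratio was -0.85, under 2-fold. In tendon, fibroblast and lining cells *Fgfr3* was between 2.04 and 6.82 CPM in both libraries, with 2.02% to 3.37% of cells above 0.

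For background, *Fgfr3* was above 0 in 0.310% of 1292 control cells with erythroid markers (0.084 to 0.791), which should lack it and had a median of 5973 UMIs. The other members were above 0 in 0.232% (*Fgfr4*) to 2.32% (*Fgfr1*) of these cells.

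*Fgfr4*, mostly a receptor of liver and muscle, stayed low. It summed to 16.7 UMIs in 16 of 501 control chondrocytes (3.19%, 1.84 to 5.13) and 2.99 UMIs in 3 of 332 mutant ones (0.904%, 0.187 to 2.62). The difference of -2.29 points (-4.36 to -0.10) became -0.17 points after thinning, and no change is read from it. In osteoblasts and lining cells it was at 0 in both libraries. These zeros allow a share of cells with a UMI of up to 2.73% and 4.05% in control and mutant osteoblasts, and of up to 1.44% and 6.67% in control and mutant lining cells, which is no limit on the share of cells expressing it.

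Most chondrocytes held at least 1 receptor transcript. None of the 4 receptors was above 0 in 63 control (12.6%) and 54 mutant chondrocytes (16.3%), against 107 of 237 control tendon cells (45.1%) and 100 of 240 control fibroblasts (41.7%). *Fgfr1* and *Fgfr3* were above 0 together in 162 control (32.3%) and 117 mutant chondrocytes (35.2%). Cells with *Fgfr3* alone among *Fgfr1*, *Fgfr2* and *Fgfr3* numbered 83 in control and 31 in mutant cells, and those with *Fgfr1* alone 82 and 63. These counts move with depth, which was higher in the mutant cells.

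Among the ligands, *Fgf2*, a growth factor held in cartilage matrix and released on injury, differed by over 2-fold in chondrocytes. It was at 35.8 CPM in control and 87.3 CPM in mutant chondrocytes, a log2 ratio of 1.26. It was found in 69 of 501 control (13.8%, 10.9 to 17.1) and 103 of 332 mutant chondrocytes (31.0%, 26.1 to 36.3). The intervals do not overlap, and the difference was 17.3 points (11.3 to 23.3). At equal depth the expected shares were 3.48% and 6.51%, a difference of 3.03 points. That is smaller than the -6.89 points of *Fgfr3*, whose shares at equal depth were higher (16.2% and 9.34%). The 3 highest cells held 14.5% of the control and 15.7% of the mutant *Fgf2* UMIs, so a few cells did not carry the value.

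The size of the *Fgf2* difference moved with the choice of cells. It was 0.997 when the unmarked *Sox9*+*Col2a1*+ cells were added, just under 2-fold, and 0.87 for the mean of per-cell CPM, under 2-fold. Markers of other lineages also differed between the chondrocytes of the 2 libraries, and their part in the result was not tested beyond the following. The 3 marrow stromal markers summed to 89.8 and 291 CPM, all 3 of them above 0 in both libraries, and the osteoblast gene *Bglap* was at 491 and 3040 CPM. Not all osteoblast genes went the same way. Of the osteoblast checks, *Col1a1* (2657 and 4357 CPM) and *Alpl* (87.3 and 135 CPM) were higher in mutant chondrocytes. *Runx2* (105 and 72.8 CPM) and *Smpd3* (484 and 274 CPM) were lower. The 4 mural markers summed to 97.8 and 11.0 CPM, all 4 of them above 0. Without the chondrocytes that passed the marker count of any of the 4 gates, leaving 442 and 268 cells, the *Fgf2* ratio was 1.52, and at or below 5% mitochondrial it was 1.43.

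In tendon *Fgf2* was at 53.0 CPM in control and 43.7 CPM in mutant cells, a log2 ratio of -0.27. The mutant value comes from 6 of 43 cells (14.0%, 5.30 to 27.9), the control one from 47 of 237 (19.8%, 15.0 to 25.5). In fibroblasts it was 49.4 and 74.7 CPM, a ratio of 0.59, with 15.0% and 19.2% of cells above 0. Osteoblasts held 6.73 and 1.60 CPM and lining cells 5.15 and 14.3 CPM. Tendon, fibroblasts and chondrocytes had overlapping intervals in the order of the control library, as did chondrocytes and fibroblasts in that of the mutant library, where chondrocytes ranked first.

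*Fgf18*, a ligand that promotes cartilage matrix formation and signals through FGFR3, was at 9.76 CPM in control and 25.8 CPM in mutant chondrocytes, a log2 ratio of 1.31. It was above 0 in 27 of 501 (5.39%, 3.58 to 7.74) and 37 of 332 cells (11.1%, 7.97 to 15.0). The intervals are apart by a small margin, the difference was 5.76 points (1.80 to 10.0), and the shares at equal depth were 1.18% and 2.10%. Here 3 cells held 31.7% of the mutant UMIs. Without the 3 highest cells of each library the ratio was 1.09, for the mean of per-cell CPM 0.53 and with the unmarked *Sox9*+*Col2a1*+ cells 0.82, so the 2-fold difference did not hold under the latter choices. Without cells passing any gate's marker count it was 1.56.

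In tendon *Fgf18* was at 20.3 CPM in control and 70.3 CPM in mutant cells, a ratio of 1.74. It was above 0 in 17 of 237 (7.17%, 4.23 to 11.2) and 12 of 43 cells (27.9%, 15.3 to 43.7), which do not overlap, with a difference of 20.7 points (7.52 to 36.8), and in 1.92% and 7.52% at equal depth. It was the single member of 5 that passed the filter in tendon to reach 2-fold, beside 10.1% of 8202 genes at least 2-fold higher and 15.6% at least 2-fold lower. Globin was above 0 in 63.3% of the control tendon cells, and among cells with no globin the ratio was 2.75. In fibroblasts the levels were 46.5 and 84.6 CPM, a ratio of 0.85, with 15.0% (10.7 to 20.2) and 28.3% (19.7 to 38.2) of cells above 0, and 4.28% and 5.66% at equal depth. There, 0 of the 5 members that passed the filter reached 2-fold in either direction, beside 6.26% of 8292 genes higher and 12.0% lower.

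In lining cells *Fgf18* was at 8.91 CPM in control and 52.8 CPM in mutant cells, a ratio of 2.44, but 4 mutant cells held all of it and 3 of them 95.5%. Without the 3 highest cells of each library the ratio was -0.93, so this value rests on single cells. It was 1 of the 3 members that passed the filter in this class, beside 7.61% of 7897 genes at least 2-fold higher and 8.89% at least 2-fold lower. It passed through its mutant level alone. Osteoblasts held 3.58 and 5.22 CPM from 2 cells in each library. By CPM fibroblasts ranked first in both libraries, but their intervals overlapped those of tendon in each, and at equal depth tendon had the higher share in the mutant library.

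**Figure D2:**
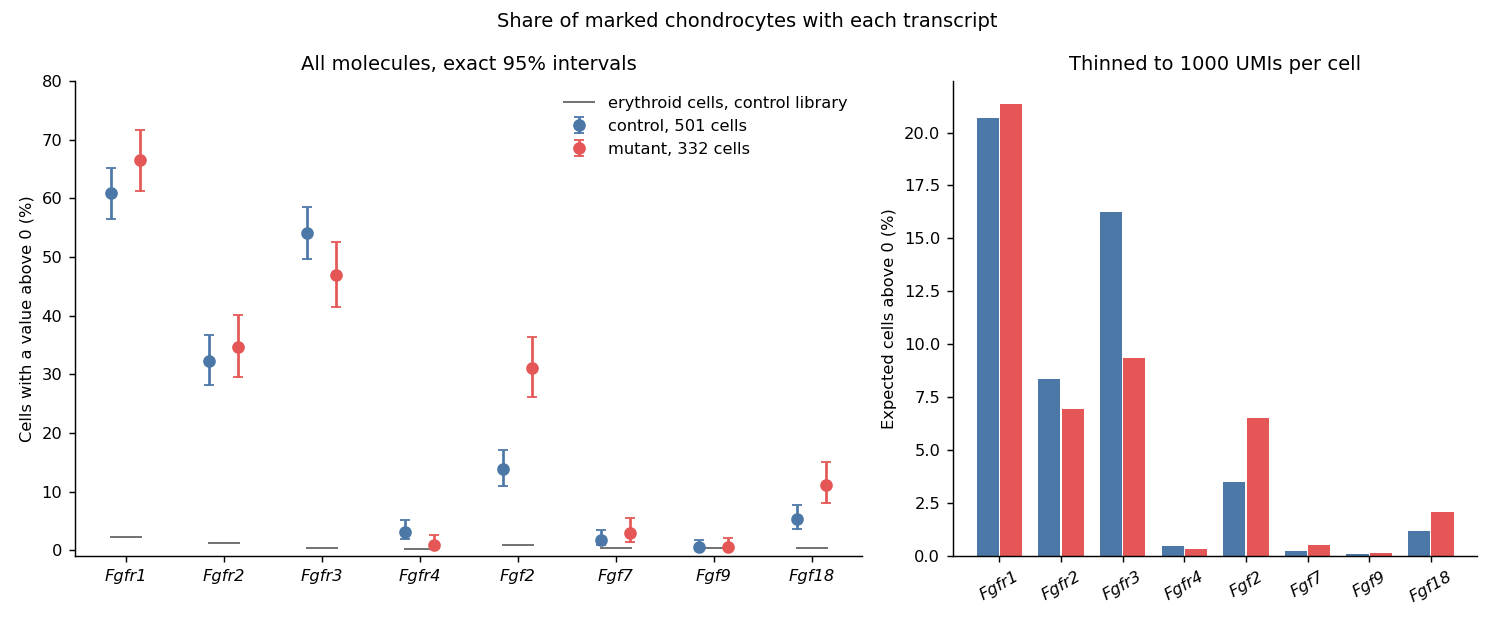
The left panel gives the percentage of marked chondrocytes with a value above 0 for each gene, points for the control (blue, 501 cells) and mutant library (red, 332 cells) with exact 95% intervals that cover counting error, and grey dashes for 1292 control cells with erythroid markers. The right panel gives the expected percentage after thinning to 1000 UMIs per cell, with *Fgf2* at 3.48% and 6.51% and *Fgfr3* at 16.2% and 9.34%.

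*Fgf9*, a ligand of FGFR3 needed for skeletal growth, was highest in tendon among the 5 classes. Tendon held 44.6% of the control and 33.4% of the mutant *Fgf9* UMIs, while making up 4.13% and 3.05% of all UMIs, and cells outside all named classes held 25.7% and 48.2%. It was at 38.8 CPM in control tendon, from 30 of 237 cells (12.7%, 8.71 to 17.6), and at 39.5 CPM in mutant tendon, from 5 of 43 cells (11.6%, 3.89 to 25.1). The levels were alike, but 3 mutant cells held 77.8% of the UMIs, and without the 3 highest cells of each library the ratio of 0.02 became -1.70. In chondrocytes *Fgf9* was above 0 in 3 control (0.599%, 0.124 to 1.74) and 2 mutant cells (0.602%, 0.073 to 2.16), which is not separate from the 0.310% of erythroid cells (0.084 to 0.791) and is read as background. The other classes had up to 5.35 CPM, and the interval of mutant tendon overlapped that of mutant osteoblasts, the next class.

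*Fgf7*, a mesenchymal ligand of the epithelial FGFR2 isoform, was highest in fibroblasts. There it was at 52.1 CPM in control and 42.2 CPM in mutant cells, a ratio of -0.30, from 37 of 240 (15.4%, 11.1 to 20.6) and 19 of 99 cells (19.2%, 12.0 to 28.3), with 5.07% and 4.41% at equal depth. In each of the other classes it was at or below 7.01 CPM in both libraries, and fibroblasts stood apart from the next class by their intervals in both. The fibroblast gate held 24.1% and 18.2% of *Fgf7* UMIs, and cells outside all named classes held 59.4% and 67.9%, so most of this ligand lay in cells the gates did not name.

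The articular-type and growth-cartilage-type subsets of the marked chondrocytes were set apart by lists that hold no FGF gene. Articular-type cells (53 control, 56 mutant) had at least 2 of *Prg4*, *Cytl1*, *Chil1*, *Erg* and *Crispld1*, and growth-cartilage-type cells (378 and 183) at least 2 of *Matn1*, *Matn3*, *Ucma*, *Col27a1*, *Ihh*, *Pth1r* and *Col10a1*, each with more of its own list than of the other. Their median depth was 4036 and 7614 UMIs for the articular type and 6356 and 11702 for the growth-cartilage type, in the control and mutant libraries. *Stat3* was at 160 and 164 CPM in the articular type and at 132 and 78.5 CPM in the growth-cartilage type. In the control library *Fgfr2*, *Fgf2* and *Fgf18* were higher in the articular type and *Fgfr3* in the growth-cartilage type. The share of all genes past 2-fold between libraries was not computed for these types. Whether a member past 2-fold in them is out of the ordinary is therefore not known. One UMI was worth 4.17 CPM in the control articular-type cells.

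In the control library *Fgfr3* was at 46.6 CPM in articular-type and 223 CPM in growth-cartilage-type cells, with 17.0% (8.07 to 29.8) and 64.8% (59.8 to 69.6) of cells above 0, a difference of -47.8 points (-58.0 to -34.1). In the mutant library the levels were 119 and 135 CPM, with 46.4% (33.0 to 60.3) and 62.8% (55.4 to 69.9), a difference of -16.4 points (-31.6 to -0.71). The 2 types were thus nearer to each other in the mutant library. At equal depth the shares were 4.01% and 18.9% for control and 9.84% and 12.5% for mutant cells, in the same order. Between libraries *Fgfr3* had a log2 ratio of 1.34 in the articular type and -0.72 in the growth-cartilage type. The articular-type share differed by 29.4 points (10.9 to 45.9), and the ratio was between 1.16 and 1.94 in each of the 4 alternatives run for these cells. The control value comes from 9 cells, 3 of which held 51.8% of its 11.2 UMIs.

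*Fgfr2* had the reverse order. In the control library it was at 202 CPM in the articular type and 53.3 CPM in the growth-cartilage type, with 56.6% (42.3 to 70.2) and 28.3% (23.8 to 33.1) of cells above 0, a difference of 28.3 points (13.2 to 42.6). In the mutant library it was at 77.0 and 37.0 CPM, and the difference in share was 10.9 points (-3.77 to 26.2). Its ratio between libraries was -1.38 in the articular type, at least 2-fold lower, with shares of 56.6% and 39.3% whose intervals overlap, and -0.52 in the growth-cartilage type. At equal depth the articular-type shares were 18.4% in control and 6.44% in mutant cells. Over the 4 alternatives the articular-type ratio lay between -1.49 and -1.30.

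*Fgf2* was higher in the articular type in both libraries by level. It was at 103 and 23.4 CPM in the control library, with 28.3% and 10.8% of cells above 0 and a difference of 17.5 points (5.40 to 31.8). In the mutant library it was at 176 and 74.4 CPM, with 41.1% and 33.3% and a difference of 7.74 points (-7.16 to 23.3). At equal depth the *Fgf2* shares were 9.02% and 2.15% for control and 12.0% and 5.66% for mutant cells. Between libraries its ratio was 0.77 in the articular and 1.63 in the growth-cartilage type, where the shares of 10.8% (7.90 to 14.4) and 33.3% (26.6 to 40.7) do not overlap. *Fgf18* was at 36.9 CPM in control articular-type cells, from 7 of 53, and 6.34 CPM in growth-cartilage-type ones, from 15 of 378. In the mutant library it was at 21.1 and 23.5 CPM, from 7 of 56 and 17 of 183 cells. In the growth-cartilage type it thus passed the level filter through its mutant level alone. Its ratio was -0.78 in the articular and 1.74 in the growth-cartilage type, and in the latter 3 mutant cells held 52.1% of the UMIs. Over the 4 alternatives these ratios lay between -1.74 and -0.69 in the articular and between 1.19 and 2.03 in the growth-cartilage type. *Fgfr1* was at 191 and 218 CPM in control and 312 and 240 CPM in mutant cells.

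**Figure D3:**
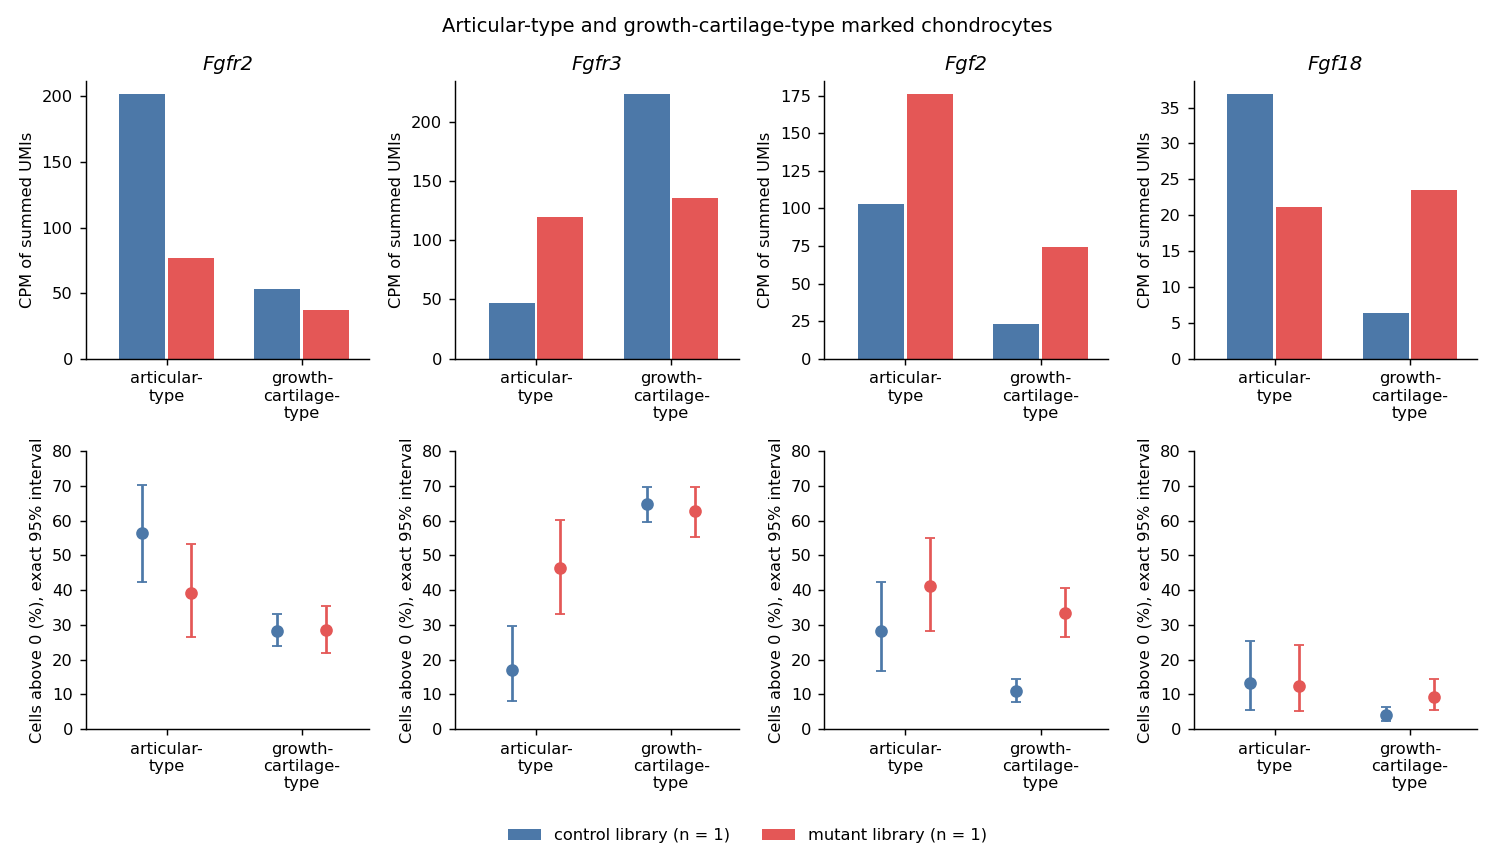
The upper panels give levels in CPM of summed UMIs and the lower ones the percentage of cells above 0 with exact 95% intervals (counting error), for articular-type (53 control and 56 mutant) and growth-cartilage-type cells (378 and 183), control in blue and mutant in red. *Fgfr3* is at 46.6 and 223 CPM in the 2 types of the control library and at 119 and 135 CPM in those of the mutant library.

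Prehypertrophic-hypertrophic-type cells (136 control, 97 mutant), which had at least 2 of *Ihh*, *Pth1r*, *Col10a1*, *Panx3* and *Mef2c* and overlap the growth-cartilage type, had more *Fgfr3* than the latter in the control library but not in the mutant one (134 against 135 CPM). It was at 285 CPM in control and 134 CPM in mutant cells, a ratio of -1.08, at least 2-fold lower. The shares were 79.4% (71.6 to 85.9) and 58.8% (48.3 to 68.7), apart by -20.6 points (-32.9 to -8.06), and 24.2% and 12.0% at equal depth. *Fgf2* was at 25.5 and 54.4 CPM in them, a ratio of 1.06, and *Fgf18* at 10.9 and 15.6 CPM. *Fgfr1* was at 139 and 180 CPM. The share of all genes past 2-fold was not computed for this type either.

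The wider pathway was read from a list of 48 genes, of which 20 passed the level filter in chondrocytes. Of these, 1 was at least 2-fold higher in the mutant library and 0 were at least 2-fold lower, beside 3.76% and 5.59% of all 7579 tested genes. So few genes cannot be set firmly against these percentages. The median ratio of the 20 was -0.05 beside -0.18 over all tested genes. The gene past 2-fold was *Dusp6*, a phosphatase that inactivates ERK and a feedback target of FGF signaling. It was at 21.8 CPM in control and 55.6 CPM in mutant cells, a ratio of 1.31, with 12.2% and 28.0% of cells above 0. The other highest ratios were those of *Spry2*, a feedback inhibitor of receptor tyrosine kinases, at 35.8 and 64.7 CPM (0.84), and *Fgfrl1*, a receptor without a kinase domain, at 67.3 and 89.9 CPM (0.41). The lowest were those of *Sos1*, the exchange factor that activates Ras, at 27.8 and 13.6 CPM (-0.98), *Etv1*, a transcription factor induced by FGF signaling, at 29.4 and 15.6 CPM (-0.87), and the heparan sulfate proteoglycan *Gpc1*, at 197 and 108 CPM (-0.85).

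By role, 0 of the 18 other ligands passed the filter, and 7 of the 11 coreceptors and binding proteins did, with a median ratio of -0.04. The median was -0.29 over 7 of the 8 adaptors and 0.30 over 6 of the 11 feedback genes and targets, 4 of which had a ratio above 0. In the other classes the median of the feedback genes was 0.06 in tendon, 0.12 in osteoblasts, -0.44 in fibroblasts and -0.20 in lining cells, beside -0.10, -0.18, -0.15 and -0.05 over all tested genes of these classes. None of these genes was at least 2-fold higher there, and 2 of 10 tested were at least 2-fold lower in tendon, 0 of 7 in osteoblasts, 1 of 8 in fibroblasts and 1 of 6 in lining cells. Over all tested genes of these classes, in the same order, 15.6%, 13.1%, 12.0% and 8.89% were at least 2-fold lower. The shares at least 2-fold higher were 10.1%, 6.73%, 6.26% and 7.61%. So few feedback genes cannot be set firmly against these shares.

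**Figure D4:**
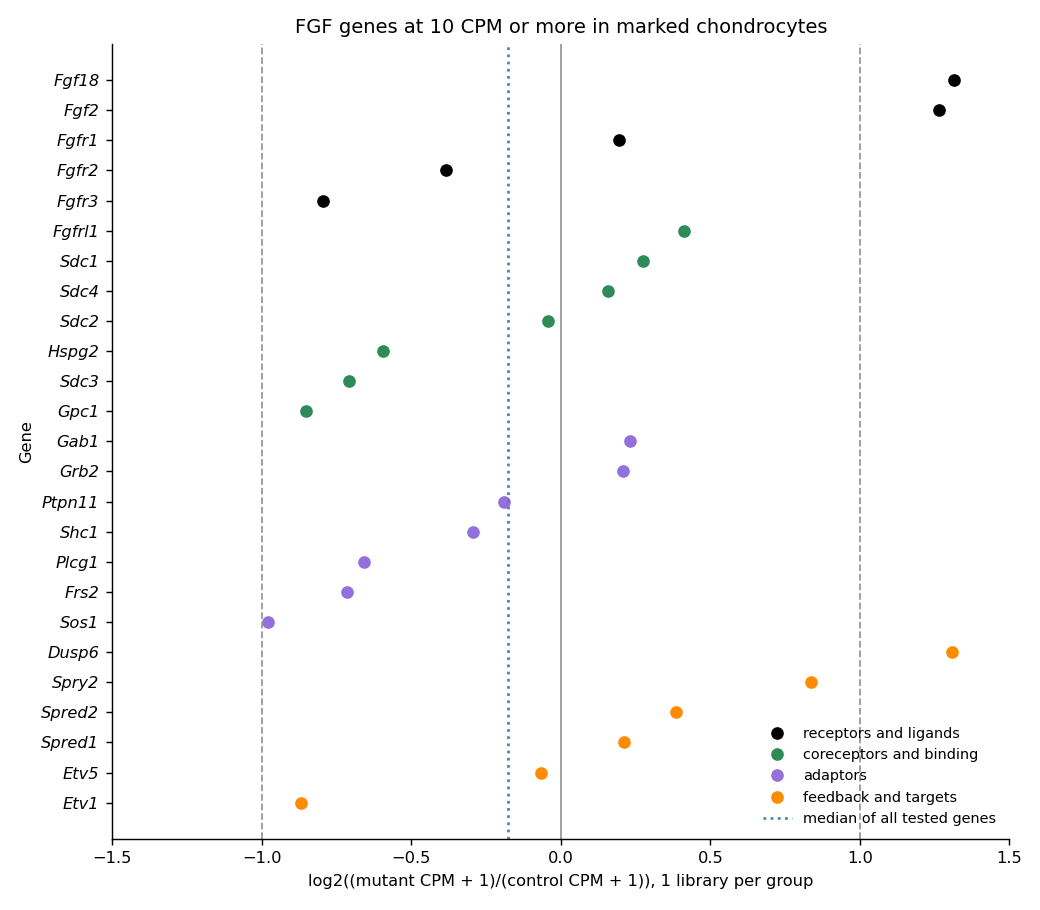
Points give the log2 ratio of mutant to control CPM in marked chondrocytes (horizontal axis, 1 library per group) for the 5 members and the 20 other pathway genes that passed 10 CPM, colored by role, with dashed lines at 2-fold and a dotted line at the median of all tested genes (-0.18). *Fgf18* (1.31), *Dusp6* (1.31) and *Fgf2* (1.26) lie above the upper line. *Sos1* (-0.98), *Etv1* (-0.87), *Gpc1* (-0.85) and *Fgfr3* (-0.80) lie closest to the lower line, in that order.

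Of the other ligands, 3 exceeded 10 CPM in any class. *Fgf1*, which binds all FGF receptors, was at 2.84 and 16.6 CPM in control and mutant chondrocytes, a mean just under the filter, and at 48.1 and 1.61 CPM in fibroblasts and 23.6 and 1.72 CPM in osteoblasts. *Fgf10*, a mesenchymal ligand related to *Fgf7*, was at 32.9 and 27.7 CPM in fibroblasts and below 1 CPM in the other classes. *Fgf13*, an intracellular relative that does not bind the receptors as a ligand, was at 10.9 and 12.2 CPM in osteoblasts.

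The genes whose level was most like that of each member were found by Pearson's r of log2(CPM + 1) over 10 values, 5 classes in each of 2 libraries, among 5962 or 5963 genes at a mean of at least 20 CPM. The 10 values share libraries and depth, so r is a description. The closest gene to *Fgfr3* was *Panx3*, a channel gene of hypertrophic chondrocytes and osteoblasts (r = 0.96), followed by *Ckap4* (0.95) and *Lrrc59* (0.95). *Fgfr1* was closest to *Phex* (0.91), an osteoblast and osteocyte gene that is one of the osteoblast gate's markers, *Ptgs2* (0.90) and *Ints13* (0.90), and *Fgfr2* to *Snhg18* (0.97), *Sec61g* (0.96) and *Sec61b* (0.94). *Fgf2* was closest to *Tubb2b* (0.97), *Meg3* (0.94) and *Oaf* (0.93), and *Fgf18* to *Gem* (0.96), *Gng10* (0.96) and *Il11ra1* (0.95). *Fgf9* was closest to *Tcea3* (0.93), *Mstn* (0.90), a gene of the TGF-beta family that limits muscle mass, and *0610030E20Rik* (0.90), and *Fgf7* to *Ep400* (0.92), *Eif3f* (0.91) and *Magi3* (0.89).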

How the data were processed

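Knee joint cells of 1 control and 1 mutant pool were sequenced with the 10x Genomics 3′ v3.1 chemistry. The authors processed reads in Partek Flow, aligned them to mm10 with STAR 2.7.3a, assigned deduplicated UMIs to Gencode genes, chose cells by knee plot and subtracted ambient RNA with SoupX, and the submitters' processing notes also name R 4.0.3. Gene values were deposited as log2(CPM + 1), with CPM scaled within each cell. The deposited total per cell is an estimated count, since ambient removal leaves values that are not whole. The authors also deposited mitochondrial and ribosomal reads as a percent, the number of expressed genes as a score and a text column that marks selected chondrocytes.

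Estimated UMIs were recovered from the log2 values and totals, and 74.9% of control and 97.3% of mutant values above 0 lay within 0.1 of a whole number, so no count model was used. UMIs were summed per class and library and scaled to CPM. A 2-library mean of 10 CPM and a 2-fold ratio with a pseudocount of 1 CPM defined a call. Shares carry Clopper-Pearson 95% intervals, and differences of shares were given intervals from those limits. For equal depth, the expected share above 0 after drawing 1000 UMIs per cell was computed, leaving out 13 control and 12 mutant chondrocytes below that depth. A share of 0 was given a limit of 3 cells.

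Tendon cells had at least 2 of *Tnmd*, *Scx*, *Mkx*, *Kera* and *Thbs4*, osteoblasts at least 3 of *Bglap*, *Bglap2*, *Ibsp*, *Sp7*, *Dmp1* and *Phex*, and fibroblasts at least 3 of *Pi16*, *Dpp4*, *Clec3b*, *Mfap5*, *Cd34* and *Dpt*. Lining cells had *Prg4*, no *Col2a1* and at least 2 of *Clic5*, *Htra4*, *Tspan15*, *Hbegf* and *Cd55*. All gates required 0 for *Ptprc*, *Pecam1* and *Alas2* and not both *Sox9* and *Col2a1*, and 65 control and 35 mutant cells that passed several gates were left out. Doublets were not called. Cells with erythroid markers had at least 2 of *Alas2*, *Slc4a1*, *Klf1* and *Epor* and 0 for *Sox9*, and a further marker planned for this gate was not used and is not reported here. All of the hematopoietic, endothelial and muscle marker sums were at or below 21.0 CPM in each class. The mural sum was 451 CPM in control and 453 CPM in mutant lining cells, all of it from *Rgs5*, and at most 97.8 CPM in the other classes. Marrow stromal sums were 501 and 878 CPM in fibroblasts, 501 and 215 CPM in osteoblasts and 89.8 to 291 CPM in the other classes. The gated classes are therefore not taken as free of these lineages.

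Named genes are the 8 members, *Stat3*, the pathway genes past 2-fold, the 3 highest and 3 lowest of those tested, the list ligands above 10 CPM in any class and the 3 genes most like each member above 20 CPM in a class. *Nudt6*, *Bglap*, the osteoblast checks given for chondrocytes and the pathway genes named for an alternative were chosen after their values were seen. The members, lists, gates and rules were chosen with earlier results of these data known. Analyses used Python 3.11.15, numpy 2.4.6, scipy 1.17.1 and pandas 2.3.3, and the ratio step was tested on simulated data.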

Additional observations from a re-analysis of the deposited data

Results flagged for a closer look

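Among the 5 cell classes, and between the articular and growth-cartilage types, there were 3 cases in which a member reached 2-fold in one kind of cell and had a ratio of the opposite sign in another, with the level filter passed in both. With 1 library per genotype none of these differences was tested. The share of all genes that meet this rule was not computed, so the count is not read as a result about the members. *Fgf2* had a log2 ratio of 1.26 in chondrocytes and -0.27 in tendon, where it was 0.32 at or below 5% mitochondrial and otherwise between -1.56 and -0.11, so its sign in tendon is not settled. *Fgfr3* had a ratio of 1.34 in articular-type and -0.72 in growth-cartilage-type chondrocytes. *Fgf18* had a ratio of 1.74 in growth-cartilage-type and -0.78 in articular-type cells, the latter from 7 cells in each library. In the growth-cartilage type it passed the filter through its mutant level alone.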

How the results depend on the processing

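Leaving out a replicate was impossible with 1 library per genotype, and no paired analysis was possible because each genotype has a single library. Of 13 alternatives for each ratio in chondrocytes, 12 moved *Fgfr1*, *Fgfr2*, *Fgfr3* and *Fgf2* by less than counting error on the cells above 0, and 11 did so for *Fgf18*. The exceptions were articular-type cells alone, an alternative chosen after seeing the data, with *Fgfr1* at 0.71, *Fgfr2* at -1.38, *Fgfr3* at 1.34, *Fgf2* at 0.77 and *Fgf18* reversed at -0.78, and the mean of per-cell CPM, with *Fgf18* at 0.53. Thinning took the share difference of *Fgf2* from 17.3 to 3.03 points and that of *Fgf18* from 5.76 to 0.92. It also lowered the shares themselves in both libraries, to 3.48% and 6.51% for *Fgf2* and 1.18% and 2.10% for *Fgf18*. Points before and after thinning are thus not on the same scale, and the part of depth in the change was not tested. The 1 pathway gene at least 2-fold higher became 7 without the filter on low values, 2 (*Fgf1* and *Dusp6*) under median-of-ratios scaling, which shifts chondrocyte ratios by 0.16, and 2 (the same genes) with all *Sox9*+*Col2a1*+ cells, where 1 (*Sos1*) was at least 2-fold lower. In lining cells *Fgf18* reversed to -0.93 without the 3 highest cells, and *Fgfr2* went from 0.80 to -0.98 with 1 gate marker more. Further alternatives chosen after seeing the data were those on other lineages' cells, on *Acan* and *Col9a1*, on cells of several gates and on the chondrocyte types. One UMI was worth 0.326 CPM in the chondrocytes of either library but 4.40 CPM in mutant tendon, which limits the latter.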
